A study of Bos taurus with 20 samples.

Results

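The miRNAs described here are the 83 bovine mature miRNAs whose miRBase number is at least 6000 and below 11000, of 1029 miRNAs listed for bull spermatozoa. They were chosen by a rule on their names that uses no measured value, although earlier results of these data were known. Small RNA libraries had been made from frozen-thawed semen of 20 Holstein-Friesian bulls, with 1 library per bull. The 10 HF bulls had a high and the 10 LF bulls a low adjusted fertility score, which corrects the pregnancy rate for herd, cow and season effects. Straws of several ejaculates were pooled for each bull and somatic cells were lysed before RNA extraction, so that a value is an average over the sperm of one bull's pooled ejaculates. The bulls stood at more than one insemination center, and the labels do not say which bull belonged to which.

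A miRNA gene is transcribed into an RNA that folds into a hairpin, and both arms of that hairpin, called 5p and 3p, can be cut out as a short mature miRNA and loaded into an Argonaute protein, where it pairs with mRNAs and represses them. miRBase numbers miRNA families in the order in which they are submitted, so low numbers are mostly old, conserved families found by cloning, while high numbers came later, often from deep sequencing of a single species. Many such late entries lie inside the introns of other genes, are low in abundance, and have few reads behind their annotation. Spermatozoa are transcriptionally silent and carry a stock of small RNAs left from spermatogenesis or gained in the epididymis.

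Values are TMM-normalized counts, which are CPM of the reads counted on miRNAs, corrected by a factor for each library. The reads behind them were recovered by taking a common low value of each library as 1 read. They numbered between 103204 and 3097581 for HF bulls, with a median of 1092881. For LF bulls they numbered between 310186 and 1640178, with a median of 1085742. HF bull 17 had the shallowest library, in which a miRNA needs a normalized count of 27.6 to reach 3 reads, against 1.19 in the library sequenced deepest. Germ line miRNAs of the miR-34 and miR-449 families were counted in every library, 5 of 5, with a summed level of 32093 to 77203 in HF and 25829 to 54584 in LF bulls. Of the markers of blood cells 3 of 6 were counted in every library, with summed levels of 65.9 to 239 in HF and 51.2 to 301 in LF bulls. Epithelial markers, 5 of 6 of them counted in every library, summed to between 6544 and 13138 in HF and between 9680 and 15554 in LF bulls. Muscle markers, 1 of 4 counted in every library, summed to between 46.0 and 145 in HF and between 17.1 and 141 in LF bulls. No marker was at 0 in all libraries. By RT-PCR of the sperm RNA, the study detected no PTPRC, CDH1 or KIT, its mRNA markers of leukocytes, epithelial cells and germ cells. What part other cells had in the miRNA values below was not tested. In such bulk samples, fewer cells of a type and less RNA per cell cannot be told apart.

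At least 1 read was counted in some library on 55 of the 83 members. The other 28 had no read in any library, which at 23350595 recovered reads in total allows a level of up to 0.128 CPM before TMM correction. Of the 55, 15 were counted in all 20 libraries, 13 in 11 to 19, 20 in 2 to 10, and 7 in a single library. Members counted in fewer than 11 libraries never reached more than 6 reads in any of them, and 22 of the 55 had under 10 reads in all libraries together. With at least 3 reads in a library as the requirement, 32 members remained. Such limits cover counting error only, since PCR copies of a molecule are not independent.

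The share of members with any read was 66.3%, against 88.7% of the 353 miRNAs numbered under 1000, which include most conserved families. It was 45.3% for the 265 miRNAs from bta-miR-2286 to below 3000 and 58.8% for the 97 numbered 11000 and above. Counted in every library were 18.1% of the members, 47.3% of those numbered under 1000, 4.53% of those from bta-miR-2286 to below 3000 and 10.3% of those from 11000. All of these shares are descriptions of the same 20 libraries, and the miRNAs of a group are not replicates, so that no test was made between them.

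Among the members themselves, detection showed no steady trend with the number, and several ranges of numbers held few members. At least 1 read was counted on 65.4% of the members from 6500 to below 7000 and on 65.6% of those from 10000. Of the 12 members numbered in the 7000s, 10 were counted and 5 were counted in every library. Of the 26 numbered from 6500 to below 7000, 17 were counted and 5 were in every library. The 32 members numbered 10000 and above included 21 that were counted, and 3 that were in every library. Of the 9 members numbered from 6000 to below 6500, 5 were counted, 2 of them in every library. Only 3 members were numbered in the 8000s and 1 in the 9000s, and none of these 4 was in every library.

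The number of members with a read followed the depth of the library. HF libraries held 28.9 ± 5.34 (SD, n = 10) members with a read and LF libraries 29.6 ± 2.76 (SD, n = 10). The extremes were 16 in HF bull 17 and 35 in HF bull 10. When every library was thinned to the depth of HF bull 17, 16 to 21 members were counted in HF bulls (median 19.0) and 18 to 21 in LF bulls (median 19.5). The ranges of the groups overlapped before and after thinning.

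**Figure D1:**
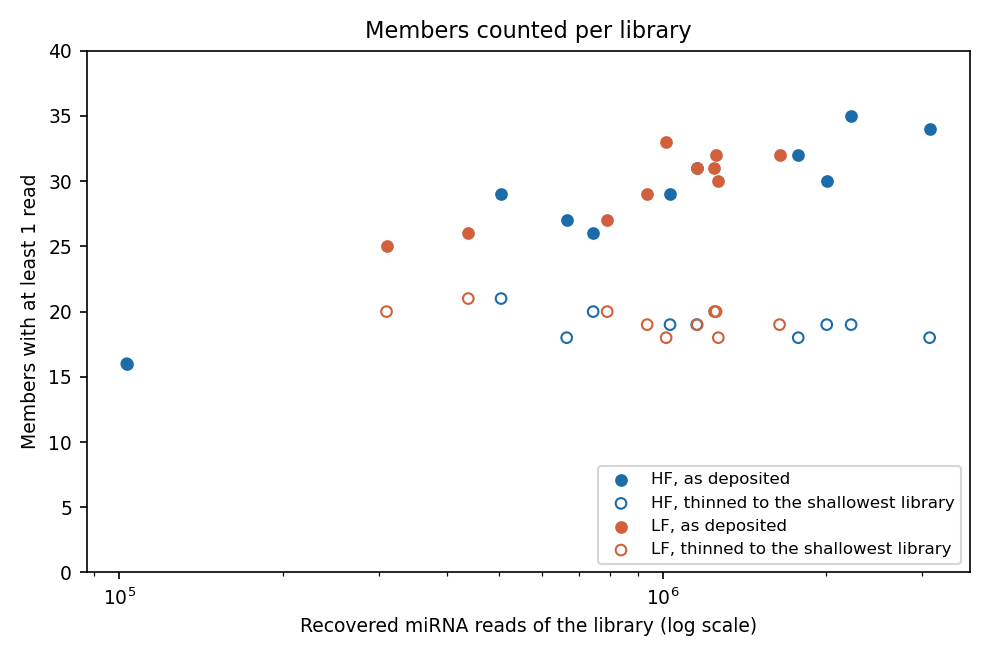
Number of members with at least 1 read (vertical axis) in each of the 20 libraries against the recovered miRNA reads of that library (horizontal axis, log scale). Filled points are the libraries as deposited, open points the median number after thinning each library to the depth of the shallowest. Filled points rise from 16 to 35 with depth, whereas open points lie between 16 and 21.

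All members together made up 0.937% ± 0.260 (SD, n = 20) of the normalized counts of a library. For comparison, the miRNAs numbered under 1000 took 90.5% and the far more numerous miRNAs from bta-miR-2286 to below 3000 took 0.212%. The 97 miRNAs numbered 11000 and above took 0.761% ± 1.34 (SD, n = 20), which differed from the members' share by less than this SD. Most of the members' counts came from very few of them. bta-miR-6526 alone made up 54.0% ± 14.5 (SD, n = 20) of the members' counts in a bull, the 4 most abundant members made up 88.5% of the mean levels and the 10 most abundant 98.0%. Without bta-miR-6526, the members' share of a library was 0.405%.

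In HF bulls the summed share was lowest at 0.544%, had a median of 0.818% and was highest at 1.67%. In LF bulls it was lowest at 0.751%, had a median of 1.00% and was highest at 1.29%. The groups overlapped over most of their ranges, and the HF bulls held both extremes. The highest share was that of HF bull 17, at 1.67% (95% Wilson interval 1.59 to 1.75), followed by 1.29% (1.27 to 1.32) in LF bull 4. No test was made of this sum.

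bta-miR-6526 was the most abundant member and ranked 26th of the 1029 miRNAs, with a mean level of 5331 ± 2506 (SD, n = 20) and 910 to 14771 reads per library. The 2 genes found for it in the ARS-UCD2.0 annotation lie on sequence not placed on a chromosome, so that its surroundings could not be described. It is named without an arm, as are 44 of the 83 members. In HF bulls its level was lowest at 1336, with a median of 4457 and a highest value of 10993. In LF bulls it was lowest at 1673, with a median of 5789 and a highest value of 8277. The LF median exceeded the level of 7 HF bulls. The highest bull was HF 17, and the LF range lay within the HF range. LF 13 was the lowest LF bull and the next was LF 5 at 3865, a level that HF 2, HF 3, HF 12 and HF 15 did not reach.

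The second member, bta-miR-7859, ranked 51st with a mean level of 1574 ± 553 (SD, n = 20). Its gene lies within the span of PTGR2, which encodes a prostaglandin reductase. HF bulls ranged between 712 and 2269 (median 1746) and LF bulls between 732 and 2279 (median 1446). Both the lowest and the highest values of the 2 groups nearly coincided.

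bta-miR-6529a followed at rank 66, with a mean level of 806 ± 214 (SD, n = 20). Its gene and that of bta-miR-6529b overlap each other within GSK3B, which encodes a kinase of the Wnt and insulin pathways. All reads of the pair went to bta-miR-6529a, of which 18391 were counted, against 0 on bta-miR-6529b. bta-miR-6523a and bta-miR-6523b, which likewise overlap each other within EPG5, an autophagy gene, had 2 and 0 reads. How far reads of near-identical members could be exchanged was not tested, since mature sequences were not used here.

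bta-miR-10167-3p ranked 81st, with a mean level of 594 ± 466 (SD, n = 20). Its gene lies within BoLA, an MHC class I gene, whose protein presents peptides to T cells and which belongs to a highly variable gene family. It stood out among the members in how much it differed between bulls, which is described below.

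**Figure D2:**
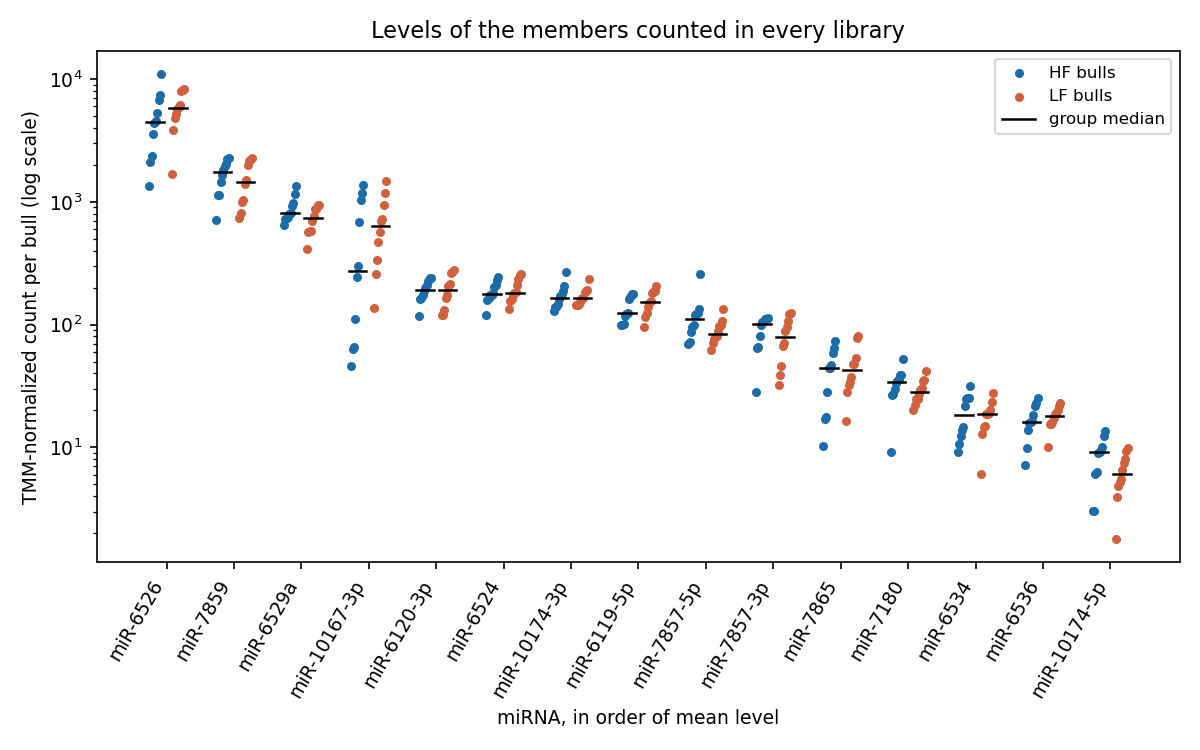
TMM-normalized count (vertical axis, log scale) of the 15 members counted in every library, in order of mean level, with 1 point per bull and a bar at the median of each group of 10. bta-miR-6526 lies highest in both groups, the 2 groups overlap for every one of the 15 members, and bta-miR-10167-3p spreads widest, from 46.4 to 1491.

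Between mean levels of 100 and 200 there were 5 members, bta-miR-6120-3p at 193 ± 50.2, bta-miR-6524 at 191 ± 39.5, bta-miR-10174-3p at 172 ± 35.04, bta-miR-6119-5p at 144 ± 34.6 and bta-miR-7857-5p at 104 ± 42.3 (SD, n = 20 for each). From bta-miR-6120-3p to bta-miR-6119-5p, neighbours in this order differed by less than their SDs, whereas bta-miR-7857-5p lay below bta-miR-6119-5p by more than the SD of the latter. bta-miR-6120 lies within CSNK1G2, a casein kinase gene, bta-miR-6524 within PDCD4, which encodes an inhibitor of translation, and bta-miR-6119 within RPL39, a ribosomal protein gene. No gene of the name was found for bta-miR-10174.

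Further down were bta-miR-7857-3p at 83.9 ± 30.6, bta-miR-7865 at 43.1 ± 20.8, bta-miR-7180 at 30.9 ± 9.09, bta-miR-6534 at 18.2 ± 6.70, bta-miR-6536 at 17.2 ± 4.66 and bta-miR-10174-5p at 7.22 ± 3.15 (SD, n = 20 for each). bta-miR-7865 lies within PPP6R1, which encodes a regulatory subunit of a protein phosphatase, and bta-miR-7180 within EFCAB2. bta-miR-6534 lies within GPATCH4, and both genes of bta-miR-6536 within REV3L, the catalytic subunit of a DNA polymerase that copies past damage. The reads behind them were few. The median library held 34.5 reads of bta-miR-7180 and 6.50 of bta-miR-10174-5p.

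Of the members missing from at least 1 library, bta-miR-10172-3p, bta-miR-6123, bta-miR-6520 and bta-miR-6522 were each counted in 19. HF bull 17 was the library with no read for bta-miR-6123, bta-miR-6520 and bta-miR-6522. bta-miR-10172-3p instead had no read in HF bull 6, whose library held 665542 reads, whereas its median was 21.5 reads per library. bta-miR-10172 lies within BEGAIN, a gene of the synaptic scaffold.

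Location within another gene was common. Of the 74 hairpins that the 83 members name, 69 were found in the annotation and 68 were placed on a chromosome, and 60 of these, 88.2%, overlapped a gene that is not a miRNA. Of the 850 other hairpins in the list that were placed, 637 or 74.9% did so. The strand was not used, so that an overlap does not say that miRNA and gene are transcribed together. bta-miR-7857 was an exception among the abundant members. Both of its genes lie outside other genes, with 7 tRNA genes within 10000 bases of one copy and 5 within that distance of the other. Among the members' other hairpins placed on a chromosome, a tRNA gene that close was found only for bta-miR-10170, with 1, on whose 5p arm a single read was counted. How common tRNA genes are near the other 850 hairpins is not given here.

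Both arms were listed for 9 hairpins. Of these, bta-miR-6121, bta-miR-6122 and bta-miR-10182 had no read on either arm, and bta-miR-10175 had 2 reads, both on the 5p arm. One arm prevailed in 4 of the other 5. In bta-miR-6119 the 5p arm held 3445 reads and the 3p arm 98, so that 97.2% of the pooled reads were 5p. In bta-miR-6120 the 3p arm held 4459 reads and the 5p arm 2. bta-miR-10174 had 3.57% and bta-miR-10172 had 12.3% of its pooled reads on the 5p arm. The mean level of bta-miR-10174-3p, at 172, was nearly that of bta-miR-23b-3p, at 171. Whether these 2 share reads was not tested, so that the arm share of bta-miR-10174 may not be that of its hairpin alone.

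bta-miR-7857 differed from these, since its arms were nearly equal over all bulls, with 2213 reads on 5p and 1979 on 3p. In single bulls the 5p share was 55.3% ± 13.6 (SD, n = 20), and it ran from 33.7% (95% Wilson interval 24.8 to 43.1) in LF bull 13 to 81.5% (75.5 to 86.3) in HF bull 14. These are the extremes of 20 bulls, and no test was made of their difference. The share had a median of 51.9% in HF and 52.9% in LF bulls, and the ranges of the groups overlapped. In HF bull 14 the 3p arm was at its lowest level of 28.1, while the 5p arm was at 124, within the range of the other bulls. The 5p arm was also the only member with values that were not whole reads, in 10 libraries. The hairpin was singled out after its values were seen.

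**Figure D3:**
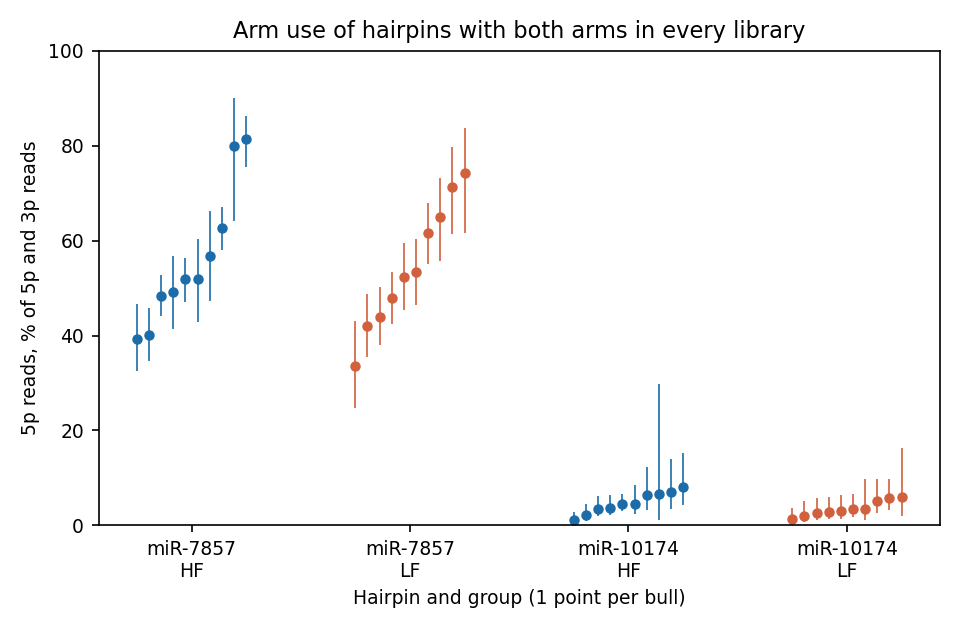
Reads on the 5p arm as a percentage of the reads on both arms (vertical axis) for bta-miR-7857 and bta-miR-10174, the hairpins with both arms counted in every library. Each point is a bull, in order of its share within a group, and bars are 95% Wilson intervals that cover counting error only. bta-miR-7857 spreads from 33.7% to 81.5% over the bulls, and bta-miR-10174 stays at or below 8.16%. Whether the 3p reads of bta-miR-10174 are shared with bta-miR-23b-3p was not tested.

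Spread between bulls was measured as the coefficient of variation (CV), the SD as a percentage of the mean. Over the 15 members counted in every library its median was 35.2%, close to the 35.8% of all 295 miRNAs counted in every library. bta-miR-10174-3p at 20.4% and bta-miR-6524 at 20.7% varied least among the members, where counting error alone would give 9.91% and 9.80%. bta-miR-23b-3p, which is not a member, nearly matched bta-miR-10174-3p, with a mean level of 171 and a CV of 20.3%. Within HF bulls the CVs of bta-miR-23b-3p and bta-miR-10174-3p were 24.2% and 24.4%, and within LF bulls 16.9% and 16.8%. Whether these 2 names count the same reads was not tested, so that the values of bta-miR-10174-3p may not be its own. bta-miR-6526 had a CV of 47.0%, where counting error alone would give 1.77%.

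bta-miR-10167-3p had the highest CV of the 15, at 78.5% against 7.25% for counting error alone. It ranked 15th of the 295, and 4th of the 160 with a mean level of 100 or more. Its highest level was 32.1 times its lowest, the 5th largest ratio of the 295. The CV was 101% in HF and 62.4% in LF bulls. Without HF bull 17 it was 79.6% over the other 19.

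**Figure D4:**
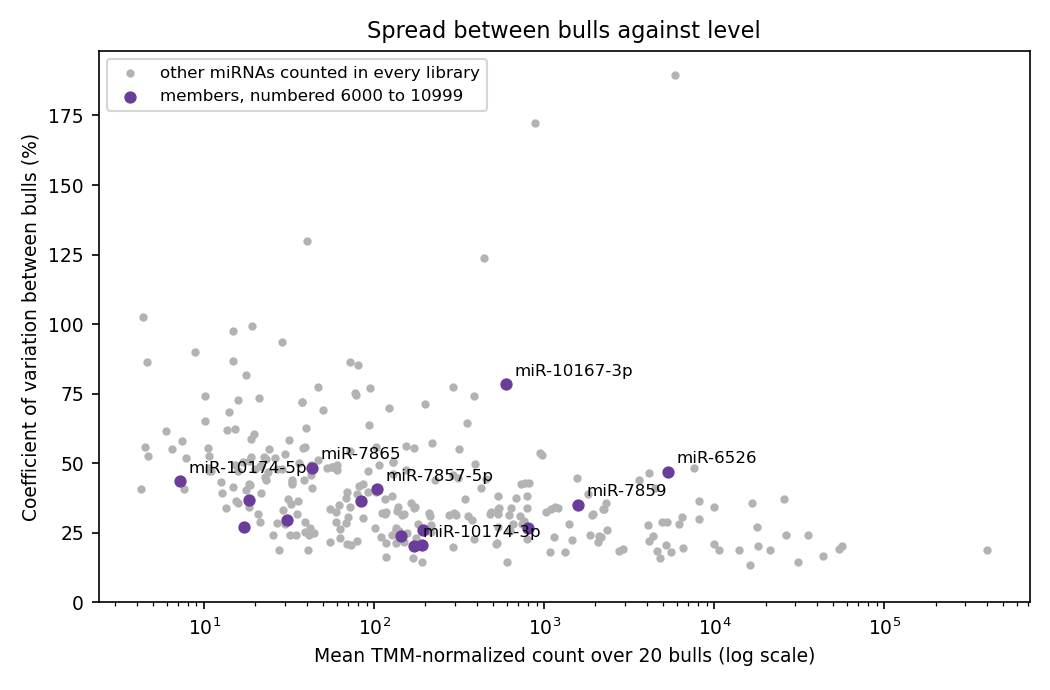
Coefficient of variation between the 20 bulls in percent (vertical axis) against mean TMM-normalized count (horizontal axis, log scale) for the 295 miRNAs counted in every library, with the 15 members in purple. bta-miR-10167-3p lies at 78.5%, above most miRNAs of its level, whereas bta-miR-10174-3p lies at 20.4%.

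The study's main question was which sperm miRNAs differ in level between HF and LF bulls. miRNAs whose normalized count was below 1 in 10 or more bulls were removed, and 435 were tested, 22 of them members. The other 61 members were not tested with this filter. None of the 22 had an unadjusted p-value under 0.05, and therefore none passed the study's thresholds of p under 0.05 and a fold change over 1.5. Of all 435 miRNAs 15, or 3.45%, had such a p-value and 9, or 2.07%, passed both thresholds. At those rates the expected number among 22 is below 1, so that a count of 0 is near the background. Among all 55 counted members tested without the filter 0 had a p-value under 0.05 as well, against 21 of 731 miRNAs, or 2.87%. edgeR's likelihood ratio and quasi-likelihood tests and DESeq2 also gave 0 of 22.

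With limma and Benjamini-Hochberg adjustment over the 435 miRNAs, the smallest adjusted p-value was 0.94 among the members and 0.92 among all. Of the 22 members 9 were higher and 13 lower in HF bulls, with a median log2 fold change of -0.08, while all 435 divided into 218 and 217 with a median of 0.01. This division of the members did not hold. Without HF 17, 16 of 23 members tested were higher and 7 lower, and on recovered reads 13 of 22 were higher with both edgeR tests and 12 with DESeq2. A fold change over 1.5 in either direction was measured for 2 of the 22 members and 43 of the 435 miRNAs. For 15 of the 22 members the 95% interval lay within 2-fold either way on the scale of log2(normalized count + 1). For 4 it lay within 1.5-fold. For the other 7 a difference of 2-fold was not excluded by the interval. The scale understates differences at low counts. For rare members among the 15, such as bta-miR-7861 at a mean level of 2.49, the interval therefore need not exclude a 2-fold difference in level.

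**Figure D5:**
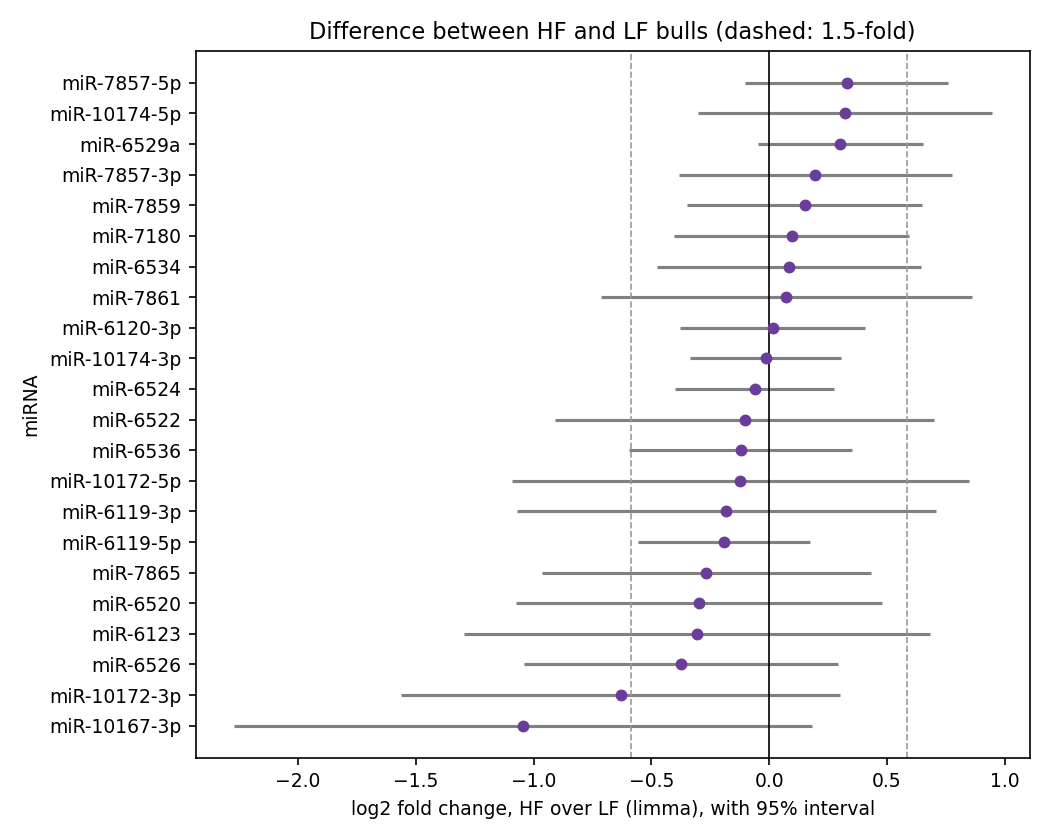
Log2 fold change of HF over LF bulls (horizontal axis) from limma on log2(normalized count + 1) for the 22 members that passed the filter. Points are estimates, lines 95% intervals, and dashed lines mark a 1.5-fold difference. Every interval includes 0, and the intervals are widest for bta-miR-10167-3p and for members with few reads.

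The smallest p-values among the members belonged to bta-miR-6529a, bta-miR-10167-3p, bta-miR-7857-5p, bta-miR-10172-3p and bta-miR-6526, all of which missed the threshold. bta-miR-6529a ran from 648 to 1351 in HF bulls (median 804) and from 415 to 949 in LF bulls (median 735). Above every LF bull were 3 HF bulls, and 4 LF bulls were below every HF bull, and the remaining bulls overlapped. Its log2 fold change was 0.30 (SE 0.17, p = 0.088, adjusted p = 0.94 with limma), with an interval from -0.05 to 0.65. Its p-value lay between 0.054 and 0.19 over the 20 fits that each left out a bull.

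bta-miR-10167-3p was lowest at 46.4, had a median of 273 and was highest at 1369 in HF bulls. In LF bulls it was lowest at 136, had a median of 632 and was highest at 1491. The 4 lowest bulls were HF bulls, namely HF 16 at 46.4, HF 3 at 63.0, HF 15 at 66.0 and HF 9 at 110, but HF 6, HF 10 and HF 17 were above 1000. The lowest of these values rested on 50 reads or more. The log2 fold change was -1.05 (SE 0.60, p = 0.092, adjusted p = 0.94 with limma), with an interval from -2.27 to 0.18. On recovered reads it was smaller, at -0.40 with edgeR's likelihood ratio test (p = 0.44), -0.42 with its quasi-likelihood test (p = 0.45) and -0.45 with DESeq2 (p = 0.44). The p-value went under 0.05 when HF 6, HF 10, HF 17 or LF 20 was left out, to 0.044, 0.039, 0.033 and 0.042. Without HF 17, the shallowest library, the log2 fold change was -1.31 with an adjusted p of 0.999 by limma, and without HF 16 it was -0.77 with an unadjusted p of 0.19.

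bta-miR-7857-5p ran from 69.9 to 257 in HF bulls (median 110) and from 61.6 to 133 in LF bulls (median 84.3). The highest value was that of HF 17, on 28 reads, and the other HF bulls reached 135. In LF bulls the highest value was that of LF 11, and the next was LF 19 at 107. The ranges of the groups overlapped with and without HF 17. The log2 fold change of bta-miR-7857-5p was 0.33 (SE 0.21, p = 0.13, adjusted p = 0.94 with limma). Over the limma fits that left out a bull it lay between 0.20 without HF 17 (p = 0.28) and 0.40 without HF 16 (p = 0.068). The CV over the bulls was 40.7% with and 23.6% without HF 17. The 3p arm of the same hairpin, with HF bulls from 28.1 to 113 and LF bulls from 32.1 to 125, had a log2 fold change of 0.20 (SE 0.28, p = 0.49).

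bta-miR-10172-3p ran from 0 to 25.9 in HF bulls (median 14.8) and from 7.76 to 28.1 in LF bulls (median 19.6). Below all LF bulls were 3 HF bulls, and 3 LF bulls were above all HF bulls. Its log2 fold change was -0.63 (SE 0.45, p = 0.18, adjusted p = 0.94 with limma). Over the limma fits that left out a bull it lay between -0.76 and -0.23, the latter without HF 6, the bull with no read. The p-value of these fits lay between 0.11 without HF 14 and 0.46 without HF 6. edgeR's likelihood ratio test gave -0.29 (p = 0.40). Its 5p arm, with 58 reads in all, had a log2 fold change of -0.12 (SE 0.47, p = 0.80).

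For bta-miR-6526, whose levels by group are given above, the log2 fold change was -0.37 (SE 0.32, p = 0.26, adjusted p = 0.95 with limma). Its interval ran from -1.04 to 0.29, which includes a level in HF bulls at 0.49 times that in LF bulls. Over the fits that left out a bull it lay between -0.56 without LF 13, the lowest LF bull (p = 0.072), and -0.19 without HF 3, the lowest HF bull (p = 0.52). edgeR's likelihood ratio test gave -0.23 (p = 0.47).

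The other members counted in every library differed less between the groups than these, or with a larger p-value. bta-miR-6119-5p had a log2 fold change of -0.19 (SE 0.18, p = 0.29) and bta-miR-10174-5p one of 0.32 (SE 0.30, p = 0.30). The latter was counted at 3.03 to 13.5 in HF and 1.79 to 9.91 in LF bulls, and 3 HF bulls were above every LF bull. The estimates nearest to 0 were those of bta-miR-6120-3p at 0.02 and bta-miR-10174-3p at -0.01, whose intervals, from -0.38 to 0.41 and from -0.34 to 0.31, lay within 1.5-fold. The sign of both turned with the test or scaling used. bta-miR-6524 at -0.06 (interval -0.40 to 0.28) and bta-miR-6119-5p (interval -0.56 to 0.17) were the others with an interval within 1.5-fold. The remaining 10 members tested had log2 fold changes from -0.31 for bta-miR-6123 to 0.15 for bta-miR-7859, with p-values between 0.44 and 0.85. For bta-miR-6123, bta-miR-6520 and bta-miR-6522, which had no read in HF 17, the log2 fold changes of -0.31, -0.30 and -0.10 became 0.05, 0.04 and 0.23 without that bull. The signs of bta-miR-6524, bta-miR-6119-3p, bta-miR-10172-5p, bta-miR-6534 and bta-miR-7861 likewise turned when certain single bulls were left out, so that no direction is given for these 8.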

How the data were processed

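The members and lists were chosen with earlier results of these data known. Per the labels and the study's methods, the authors trimmed reads with cutadapt, removed other short RNAs, aligned to ARS-UCD1.2 and counted mature miRNAs of miRBase with miRDeep2. The deposited values are a signal per miRNA, CPM divided by edgeR's TMM factor. Each value was divided by one of the commonest values of its library, chosen so that most values came out whole. Of the values above 0, 95.0% came out as whole reads (tolerance 0.01). 0 columns lacked a sample.

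HF and LF were compared with limma 3.58.1 (R 4.3.3, variance trend, no covariate) on log2(normalized count + 1), with Benjamini-Hochberg adjustment over the 435 miRNAs kept. This scale understates changes of rare miRNAs. Rounded recovered reads were tested with edgeR 4.0.16 and DESeq2 1.42.0. Scripts were tested on simulated data. Thinning used medians of 25 draws. Named are the members in every library, the 10 most abundant, the 5 with the smallest p-values, and both arms of tested hairpins. bta-miR-6123, bta-miR-6520, bta-miR-6522, bta-miR-7861, never-counted pairs and hosts were named after their values were seen. Neighbouring genes come from the RefSeq table of ARS-UCD2.0, so that no coordinates are given. Mature sequences, mRNA libraries and insemination centers were not used here.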

Additional observations from a re-analysis of the deposited data

Results flagged for a closer look

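In each of 40 groups of 10 bulls, the gap between the most extreme bull and the next was divided by the range of the group and set against Dixon's 95% critical value for 10 samples. It was exceeded in 4 groups, where chance gives about 2 if the groups are independent and normally distributed. bta-miR-6120-5p in HF bulls, with 0 reads, was among the 40 and could not exceed it. In HF bulls, bta-miR-7857-5p of HF 17 stood apart with a ratio of 0.653, at 257 on 28 reads, with the next bull at 135. The summed share of the members in HF 17 gave 0.513, at 1.67% with the next HF bull at 1.09%. In LF bulls, bta-miR-10174-3p of LF 18 gave 0.491, at 236 on 191 reads, with the next bull at 190. bta-miR-6120-5p of LF 13 gave 0.564, at 1.84, with the next bull, LF 8, at 0.801. Each of these values was a single read, so that the gap is a difference in the value of 1 read between libraries.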

How the results depend on the processing

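The number of members past p under 0.05, with or without the fold threshold, was 0 with pseudocounts of 0.5 and 5, with both edgeR tests, with DESeq2, without TMM factors and with other filters, and 1, bta-miR-10167-3p, without the shallowest library (0 to 1 when leaving out single bulls). The members' share fell from 0.937% to 0.405% without the most abundant member. Members counted fell from 55 to 32 with at least 3 reads. Log2 fold changes of the 22 members kept their direction and side of the threshold in 561 of 609 combinations of member and fit, gained p under 0.05 in 4, all of bta-miR-10167-3p, and turned their sign in 44, in 10 members. bta-miR-6120-3p (0.02) was -0.025 with DESeq2, -0.046 without TMM factors and -0.053 to 0.092 with each bull left out. bta-miR-10174-3p (-0.01) was 0.038 with the likelihood ratio test, 0.031 with the quasi-likelihood test, 0.0076 with DESeq2, 0.028 without the shallowest library and -0.090 to 0.038 with each bull left out. Without the shallowest library, bta-miR-6524 was 0.0071 (-0.12 to 0.0071 with each bull left out), bta-miR-6119-3p 0.042 (-0.42 to 0.042) and bta-miR-10172-5p 0.039 (-0.30 to 0.039). With the likelihood ratio test, the quasi-likelihood test, DESeq2 and without the shallowest library, bta-miR-6123 was 0.195, 0.197, 0.155 and 0.052 (-0.45 to 0.052 with each bull left out), bta-miR-6520 0.073, 0.044, 0.044 and 0.040 (-0.41 to 0.040) and bta-miR-6522 0.041, 0.068, 0.020 and 0.227 (-0.22 to 0.227). With each bull left out, bta-miR-6534 ranged from -0.063 to 0.18 and bta-miR-7861 from -0.10 to 0.26. For sign changes other than by fewer samples, the cause was not tested. No paired analysis was possible because the HF and LF bulls were different animals with no stated pairing. Depth limits members under 3 reads per library.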
